A study of Mus musculus with 4 samples.

Results

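MHC class II presentation and costimulation were followed through 10 of the 31053 genes in the count matrices, taken by symbol. These were H2-Aa, H2-Ab1 and H2-Eb1, which encode chains of the class II molecules I-A and I-E, Cd74, the invariant chain, H2-DMa and H2-DMb1, which encode the peptide-exchange molecule H2-DM, Ciita, the transcriptional coactivator of the class II genes, and Cd80, Cd86 and Cd40, which encode costimulatory molecules. All 10 were measured in CD45+ cells sorted from the spinal cord of C57BL/6 mice of both sexes. The cells were sequenced with the 10x Chromium 3′ v3 method, in 1 library for each of 4 conditions. Standard sham and ActD sham mice had a laminectomy without contusion, and the 3 dpi and 14 dpi libraries came from mice given a moderate thoracic contusion at 3 months of age, taken 3 and 14 days post-injury. ActD sham, 3 dpi and 14 dpi cells were dissociated with actinomycin D, a transcription inhibitor, at 45 µM in the digestion and 3 µM in the cold steps, whereas standard sham cells were dissociated without it. Tissue was an 8 mm segment centred on the lesion. For the study 30 mice were split into 3 groups (control, 3 dpi and 14 dpi), with the number in each library not given in the sources used here.

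After filtering, 5035, 2135, 8214 and 9078 cells with 47748531, 25806434, 96563760 and 95950280 unique molecular identifiers (UMIs, 1 per captured RNA molecule) were kept in standard sham, ActD sham, 3 dpi and 14 dpi. The libraries shared 3 to 36 barcode strings per pair. Standard sham and 3 dpi carry software version 3.0.1 and ActD sham and 14 dpi carry 3.1.0. For the sham libraries the use of actinomycin D therefore cannot be told apart from the software version. Ratios of 3 dpi over ActD sham and of 14 over 3 dpi also cross the version, which cannot be told apart from injury or time. ActD sham and 14 dpi share a version. There were no replicates to give a spread for any difference between conditions, and no test was made. Levels are UMIs of a gene per 1000000 UMIs of a class (CPM), which need no scaling by gene length because each molecule is counted at its 3′ end. Values in square brackets are exact 95% intervals and cover counting error only. Ratios are log2 ratios of CPM, and a gene was counted as higher or lower when the ratio was at least 2-fold and the pair of sums held at least 200 UMIs of it.

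Cell classes were named from marker genes that did not include the 10 genes. The naming itself required at least 3 detected markers of a list, so their presence is no separate check of a name. Microglia numbered 2688, 1667, 814 and 4352 cells in standard sham, ActD sham, 3 dpi and 14 dpi, and border macrophages, the Mrc1- and Pf4-positive cells of the meninges and vessels, numbered 132, 137, 106 and 192. Injury macrophages, named from a list that holds Arg1, Gpnmb and Fabp5, were found at 3 dpi (3487 cells) and 14 dpi (89 cells). At a resolution of 0.6, Arg1 was among the leading genes of some of their clusters at 3 dpi. It was not at 14 dpi, where Gpnmb led. Classical monocytes numbered 152 cells in standard sham, 526 at 3 dpi and 756 at 14 dpi. Dendritic cells (DCs) comprised 108 conventional DC1 (cDC1) at 3 dpi, 397 and 320 conventional DC2 (cDC2) at 3 and 14 dpi, 73 and 38 migratory DCs at the same times, and 39, 25 and 49 plasmacytoid DCs (pDCs) in standard sham, at 3 dpi and at 14 dpi. Mature B cells numbered 218, 134 and 152 in the same 3 libraries, beside B cells with pre-B markers in standard sham (515), ActD sham (65) and 14 dpi (338). A class is given where it held at least 20 cells, and 775, 135, 171 and 616 cells stayed without a name.

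Class II molecules are pairs of an alpha and a beta chain that are built around the invariant chain in the endoplasmic reticulum and carried to endosomes. There the invariant chain is degraded, H2-DM helps to exchange its remnant for a peptide, and the loaded molecule travels to the surface to be read by CD4 T cells. DCs, B cells and macrophages are the cells known for this pathway, and their class II genes share a promoter module of X and Y boxes at which the factors RFX, CREB and NF-Y assemble and recruit Ciita. A T cell that sees its peptide also needs costimulation, given by CD80 and CD86 through CD28, while CD40 on the presenting cell receives CD40 ligand from the T cell. In the uninjured spinal cord, parenchymal microglia are known for little class II, and macrophages of the borders and DCs for much of it.

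The promoters of H2-Aa, H2-Eb1 and H2-DMb1 are shown because theirs are the windows, of the 5 genes found in the table, that hold letters of that shared module. Cd74 was left out of the search, so its window was not looked at. They come from RefSeq on build GRCm38.p6 and span 250 bases before to 50 bases after the start of the gene, 5′ to 3′ on the gene's strand, with letters of the Y box (TGATTGG) and of the X1 box core (AGNAACNG) in capitals.
H2-Aa: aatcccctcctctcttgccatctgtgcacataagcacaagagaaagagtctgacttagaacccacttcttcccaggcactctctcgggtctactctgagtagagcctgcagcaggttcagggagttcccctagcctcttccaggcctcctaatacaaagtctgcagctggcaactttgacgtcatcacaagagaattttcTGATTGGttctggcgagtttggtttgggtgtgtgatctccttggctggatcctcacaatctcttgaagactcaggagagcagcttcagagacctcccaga
H2-Eb1: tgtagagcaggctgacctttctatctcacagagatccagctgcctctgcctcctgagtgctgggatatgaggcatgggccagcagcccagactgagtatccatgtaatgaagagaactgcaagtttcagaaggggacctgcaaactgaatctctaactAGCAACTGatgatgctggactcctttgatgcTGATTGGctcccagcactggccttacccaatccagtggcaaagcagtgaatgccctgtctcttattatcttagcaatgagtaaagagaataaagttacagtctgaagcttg
H2-DMb1: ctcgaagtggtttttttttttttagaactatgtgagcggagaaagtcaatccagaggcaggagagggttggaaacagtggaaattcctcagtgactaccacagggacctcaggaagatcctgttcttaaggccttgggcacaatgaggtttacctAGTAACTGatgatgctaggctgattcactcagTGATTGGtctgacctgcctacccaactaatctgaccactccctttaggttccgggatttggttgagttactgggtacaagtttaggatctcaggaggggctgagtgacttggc
The H2-Aa window is chr17:34287774-34288073 on the minus strand, that of H2-Eb1 chr17:34305617-34305916 on the plus strand, and that of H2-DMb1 chr17:34152941-34153240 on the plus strand. In H2-DMb1 the X1 core AGTAACTG began 95 bases before the start and the Y box 63 bases before it, and in H2-Eb1 the X1 core AGCAACTG began 92 bases and the Y box 61 bases before it. H2-Aa held the Y box 50 bases before the start and no X1 core in these letters. Searched on both strands, where the reverse letters are CCAATCA and CNGTTNCT, the Y box was in 7.82% and the X1 core in 17.4% of the 32851 promoter windows of the table, and an X1 core 10 to 45 bases before a Y box on the same strand was in 0.134% (44 windows). The Y box and the X1 core did not overlap in these windows, and neither was found in the windows of Cd80 (1 entry) or H2-DMa (2 entries). A match of letters describes the window and says nothing of binding. All 10 genes are protein coding in GENCODE M21, in which H2-Aa, H2-Ab1, H2-Eb1, H2-DMa and H2-DMb1 lie on chromosome 17, Ciita, Cd80 and Cd86 on chromosome 16 and Cd40 on chromosome 2.

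Cells of the conventional dendritic lineage held the most class II transcript of any named class. The class II sum, which is H2-Aa, H2-Ab1, H2-Eb1 and Cd74 added, was 48558 [48126 to 48992] CPM in cDC1 at 3 dpi, 43722 [43498 to 43947] in cDC2 at 14 dpi and 37505 [37309 to 37702] in cDC2 at 3 dpi. Border macrophages of the sham libraries followed at 34872 CPM in ActD sham and 32032 in standard sham. These values set the upper end of a range in which microglia of the sham libraries stood at 226 and 228 CPM. Between the extremes lay migratory DCs (23147 CPM at 3 dpi and 11582 at 14 dpi), mature B cells (20849, 15437 and 16618 CPM in standard sham, 3 dpi and 14 dpi), classical monocytes (1419, 2461 and 9527 CPM) and pDCs (7191, 4233 and 4094 CPM). In that order the pDC sums of 3 dpi (4233 [3919 to 4566] CPM) and 14 dpi (4094 [3898 to 4299] CPM) overlapped in their intervals, as did those of microglia in the sham libraries (226 [219.5 to 232] and 228 [221 to 235] CPM) and at 3 and 14 dpi (448 [439 to 458] and 437 [432 to 443] CPM). Cd74 was the most abundant of the 4 genes in every class, as in cDC1, where Cd74 stood at 22391 CPM, H2-Aa at 9462, H2-Ab1 at 9231 and H2-Eb1 at 7474.

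**Figure D1:**
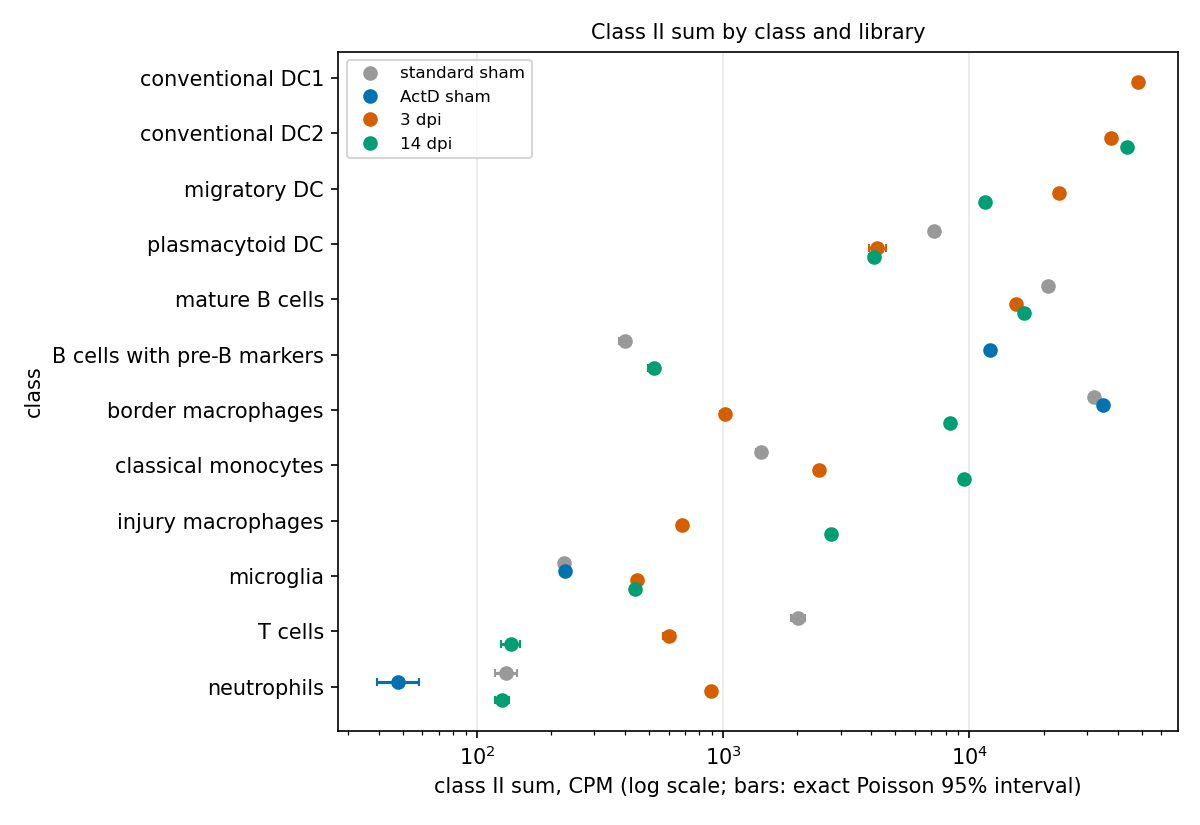
Class II sum in CPM on a log scale (horizontal) by cell class (vertical), with 1 point per library in the library's colour and bars for the exact Poisson 95% interval, which cover counting error only. cDC1 and cDC2 lie furthest right at 37505 to 48558 CPM, border macrophages span 1019 to 34872 CPM over the libraries, and microglia stay between 226 and 448 CPM.

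Droplets also take up free RNA, so classes that are not among the main class II presenters were measured as a reference in each library. The study gated a neutrophil subset as MHC II-positive by flow cytometry. Neutrophil values may therefore hold transcript of their own beside free RNA, which was not tested. Neutrophils held a class II sum of 132 CPM in standard sham, 47.9 in ActD sham, 894 at 3 dpi and 126 at 14 dpi, and T cells held 2022 CPM in standard sham, 603 at 3 dpi and 137 at 14 dpi. The reference was thus highest at 3 dpi in neutrophils and in standard sham in T cells, of which only 56 cells were kept there. Those T cells had a median of 0 CPM per cell and a 95th percentile of 5126.6 CPM, so a small part of them carried the sum. In CPM a shallow cell gives free RNA more weight, and neutrophils at 3 dpi had a median of 2303 UMIs against 20897 in microglia. With each cell thinned to 1000 UMIs, at least 1 class II UMI was found in 6.34%, 9.91%, 58.5% and 13% of neutrophils in standard sham, ActD sham, 3 dpi and 14 dpi, where the unthinned shares were 32.0%, 42.3%, 85.1% and 49.5%. Among T cells the thinned share was 16.1% in standard sham, 47.8% at 3 dpi and 12.8% at 14 dpi, and 2 to 10 cells per library were too shallow to be thinned. A share of cells at or below these values is not read as expression. Thinning keeps the fraction of a cell that free RNA takes, which is larger in a shallow cell, so a share below that of shallow neutrophils does not place a deeper class at background either.

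Read against this reference, the conventional and migratory DCs, mature B cells and the border macrophages of the sham libraries stood clear of it in every library that held them. pDCs did so in standard sham and at 14 dpi, but at 3 dpi (80.0% [59.3 to 93.2], 25 cells) overlapped the interval of neutrophils. Thinned cells with a class II UMI made up 100% of cDC1, 96.2% and 95.9% of cDC2 at 3 and 14 dpi, 89.0% and 92.1% of migratory DCs, 79.5%, 80.0% and 57.1% of pDCs and 94.0%, 99.3% and 98.7% of mature B cells in standard sham, 3 dpi and 14 dpi. Border macrophages gave 77.3% and 80.3% in the sham libraries. At 3 dpi, border macrophages (41.5%), injury macrophages (35.2%), classical monocytes (54.6%) and microglia (34.4%) all lay below the 58.5% of neutrophils, whose median depth of 2303 UMIs compares with 14241, 15075, 8073 and 20897. Counted per cell the order was another, with 17.1, 10.8, 20.7 and 10.4 class II UMIs in these classes against 2.24 in neutrophils. Fibroblasts at 3 dpi, 20 cells with a median of 20986 UMIs, held about as many per cell as microglia and injury macrophages. They held fewer than border macrophages and classical monocytes. Their class II sum per cell was uneven, with a median of 317 CPM and a 95th percentile of 2123.1 CPM. The study described a monocyte-derived fibroblast cluster among its CD45+ cells. Whether the fibroblasts here made class II transcript of their own was not tested. Whether the classes stood above free RNA at 3 dpi thus depended on the measure and on the class set beside them. At 14 dpi the same classes gave 49.7%, 34.8%, 54.8% and 21.8%, above the 13% of neutrophils, 12.8% of T cells and 14.7% of endothelial cells. A stricter count, of thinned cells with at least 10 class II UMIs, was 0.111% in neutrophils at 3 dpi. It was far higher in cDC1 (100%), cDC2 (84.6%) and mature B cells (76.9%). Classical monocytes gave 7.03%, border macrophages 1.89%, injury macrophages 0.975% and microglia 0.369%. The shares of border macrophages and microglia rest on very few cells, so this count does not set these classes apart from neutrophils.

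**Figure D2:**
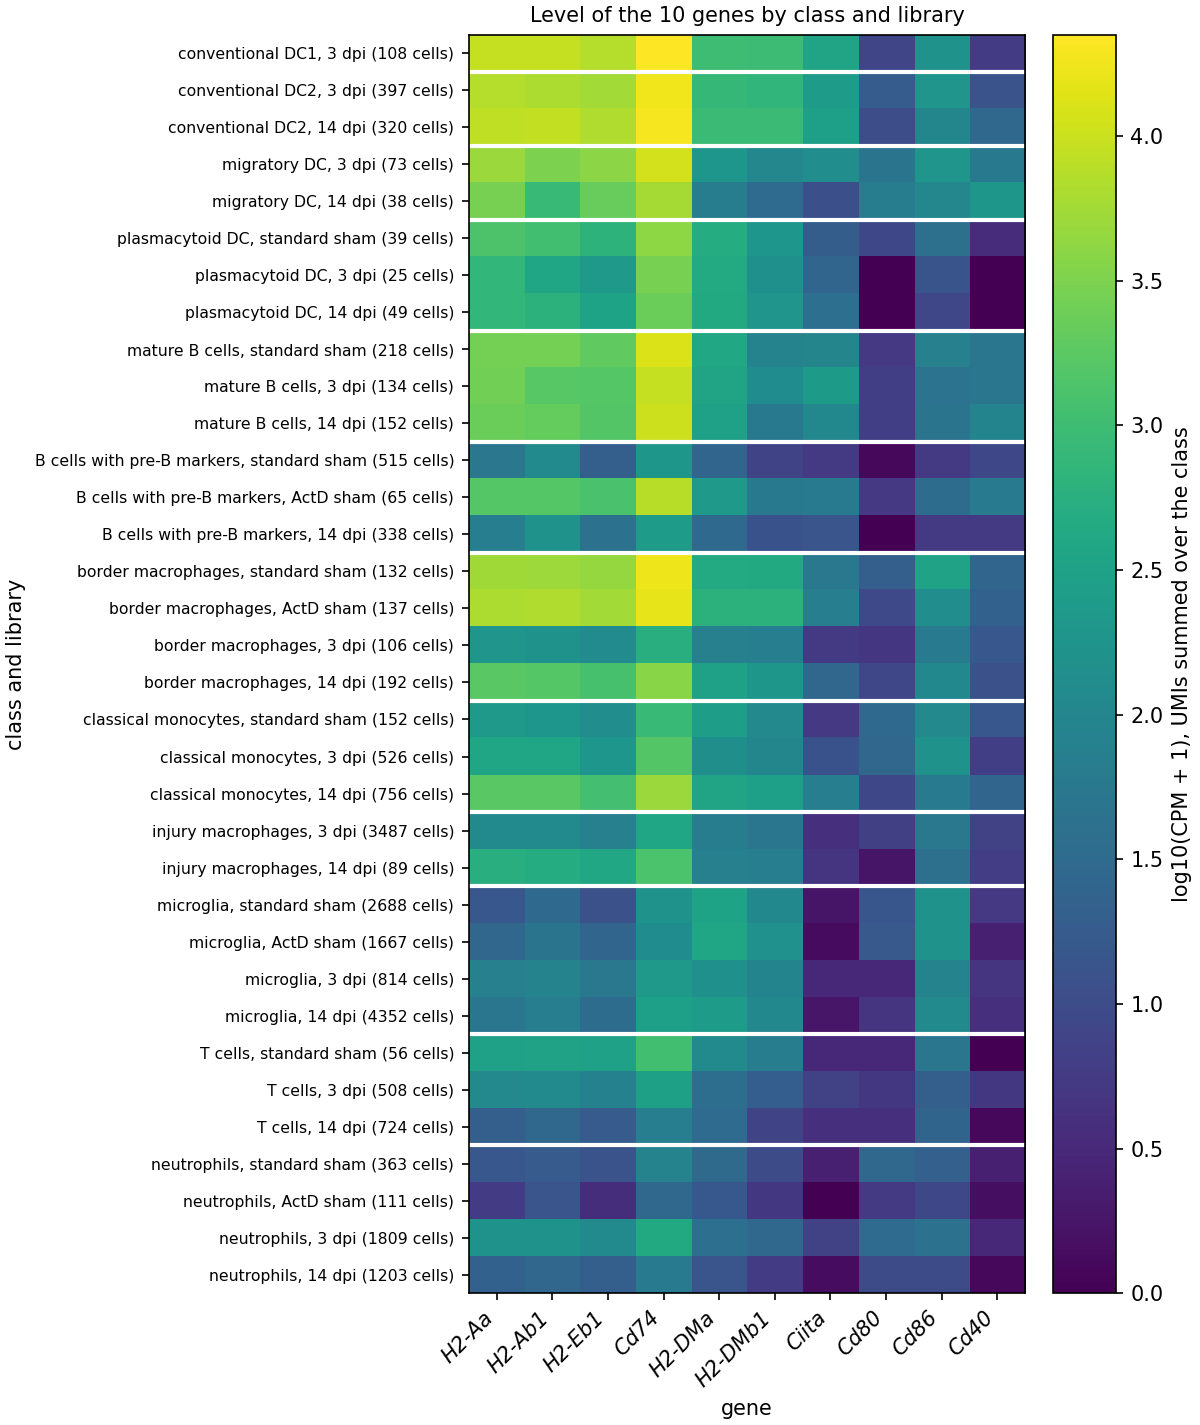
Level of each of the 10 genes (columns) as log10(CPM + 1) of the UMIs summed over each class and library (rows, with the number of cells). Columns H2-Aa, H2-Ab1, H2-Eb1 and Cd74 brighten together in DCs, mature B cells and sham border macrophages, H2-DMa and H2-DMb1 are also present in microglia, where Ciita stays at or under 2.21 CPM, and Cd80 and Cd40 are low in most rows.

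The cells that held most class II transcripts of a library differed between sham and injury. In ActD sham border macrophages were 6.42% of cells and held 77.5% of the 71641 class II UMIs of named and unnamed cells, while microglia were 78.1% of cells and held 5.45%. Standard sham gave border macrophages 35.3%, unnamed cells 27.1% and mature B cells 22.7% of 87352 class II UMIs. At 3 dpi cDC2 were 4.83% of cells and held 50.3% of 279370 class II UMIs, followed by cDC1 with 17.3% and injury macrophages, 42.5% of cells, with 13.5%. At 14 dpi cDC2 were 3.53% of cells and held 54.8% of 266989 UMIs, classical monocytes 22.4%, microglia 8.53% and border macrophages 5.77%. In the main naming border macrophages thus led in both sham libraries and cDC2 in both injured ones. With integration, border macrophages of standard sham held 28200 class II UMIs, close to the 27092 of mature B cells. Integration also named 31 cDC2 in standard sham, with 11205 class II UMIs, where the main naming had none. The shares depend on the naming, on how many cells of each class were captured and on their depth, beside the level per cell. The cDC2 name did not set apart the injury-associated conventional DC subset that the study described.

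**Figure D3:**
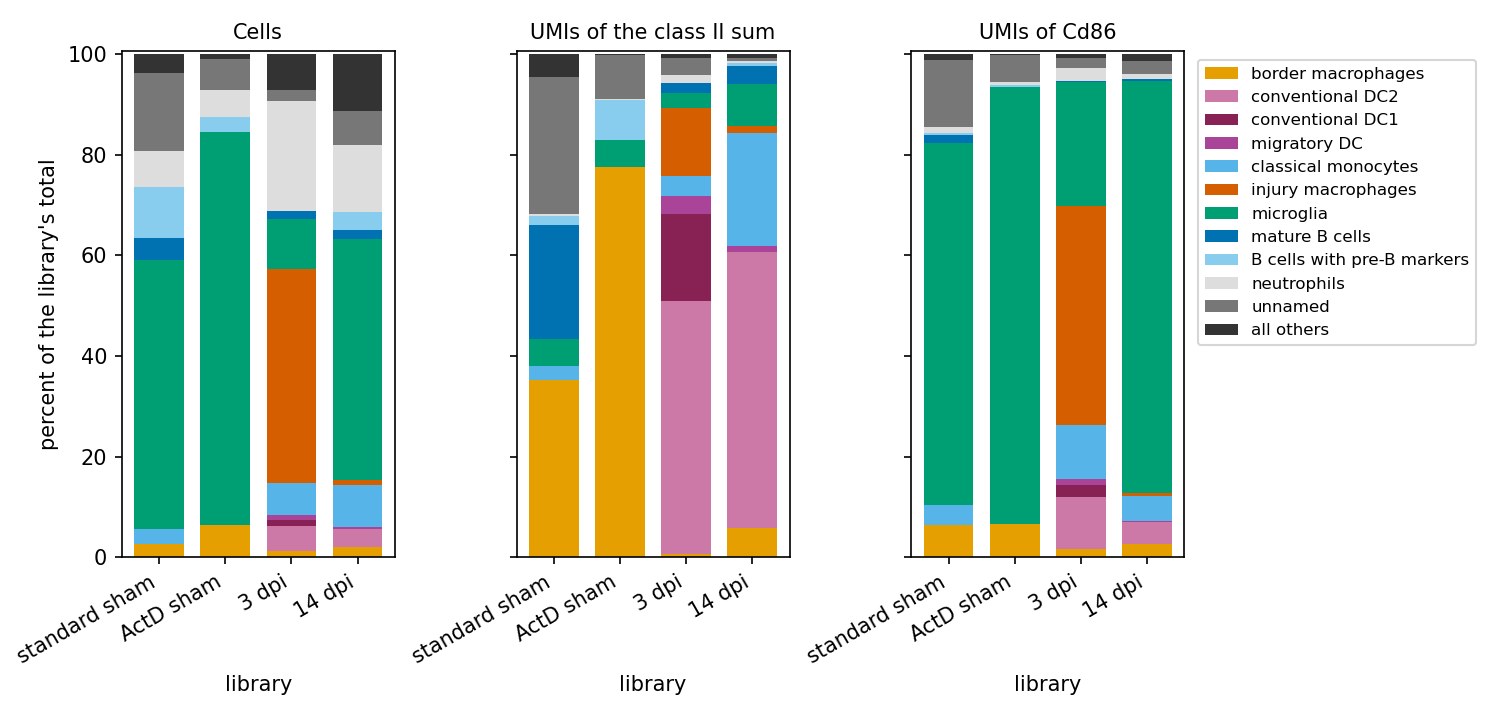
Stacked bars of the share (percent) of cells, of class II UMIs and of Cd86 UMIs that each cell class took in each library. Border macrophages (orange) take 35.3% and 77.5% of the class II UMIs in the sham libraries and cDC2 (pink) 50.3% and 54.8% after injury, whereas microglia (green) take 72%, 86.8% and 81.8% of the Cd86 UMIs in standard sham, ActD sham and 14 dpi.

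Within the DCs, the conventional subsets were high in all class II genes, migratory DCs were lower in them and higher in Cd40 and Cd80, and pDCs were low in both. In cDC2, H2-Aa was 7206 CPM at 3 dpi and 8497 at 14 dpi, H2-Ab1 was 6526 and 8824, and Ciita was 252 and 282. None of the 8 genes with enough UMIs was 2-fold higher or lower in cDC2 at 14 dpi than at 3 dpi, beside 6.63% of all genes higher and 5.05% lower, and the class II sum had a log2 ratio of 0.22 [0.21 to 0.23]. With other clusterings, doublet and cell filters that ratio was -0.23 to 0.04, so its direction was not stable. The gene that differed most among those 8 was Cd86, from 187 [174 to 202] CPM at 3 dpi to 98.7 [88.3 to 109.9] at 14 dpi (log2 ratio -0.92 [-1.12 to -0.73]), and under each of those alternatives Cd86 was the 1 gene 2-fold lower. cDC1, the cross-presenting subset, held 345 CPM of Ciita, the highest level of that gene in any class and library. Against classical monocytes, 7 of 8 genes were 2-fold higher in cDC2 at 3 dpi and 7 of 9 at 14 dpi, beside 6.60% and 3.98% of all genes. None was lower, beside 7.93% and 8.17%. Against mature B cells, 6 of 8 were higher at 3 dpi and 7 of 8 at 14 dpi, beside 20.1% and 16.4% of all genes. None was lower, beside 6.21% and 7.57%.

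Migratory DCs, the Ccr7-positive state in which DCs travel to lymph nodes, lay below cDC2 in every class II chain. Their H2-Ab1 was 3157 CPM at 3 dpi and 862 at 14 dpi, with log2 ratios to cDC2 of -1.05 [-1.13 to -0.97] and -3.36 [-3.54 to -3.17]. H2-DMb1, at 103 and 31.6 CPM, gave -2.83 [-3.29 to -2.41] and -4.89 [-6.02 to -3.97], and Ciita, which was down to 3 UMIs at 14 dpi, gave -0.91 [-1.31 to -0.53] and -4.75 [-7.03 to -3.20]. Of the 8 genes with enough UMIs, 3 were 2-fold lower at 3 dpi and 7 of 8 at 14 dpi, where 20.3% and 28.8% of all genes were lower, and 0 were higher at either time, beside 7.98% and 8.61% of all genes. The count of lower genes ranged from 4 to 7 at 3 dpi under the alternatives, and at 14 dpi it was 4 of 9, with 1 higher, without doublet removal. The exceptions were the costimulatory genes. Cd86 differed from cDC2 by no more than counting error allowed, with log2 ratios of -0.02 [-0.37 to 0.32] and 0.04 [-0.56 to 0.59], and Cd80 was 45.6 CPM at 3 dpi and 66.6 at 14 dpi against 17.6 and 9.57 in cDC2. Cd40 was 57.1 [36.9 to 84.2] and 203 [154 to 263] CPM against 12 [8.77 to 16.1] and 29.0 [23.5 to 35.4]. Cd80 and Cd40 had under 200 UMIs in each of these pairs, with counting intervals that excluded 0 (log2 ratios of 1.37 [0.57 to 2.11] and 2.25 [1.48 to 2.98] at 3 dpi and 2.80 [1.90 to 3.66] and 2.81 [2.31 to 3.29] at 14 dpi). Among the class II chains, H2-Ab1 lay furthest below cDC2, and it made up 7.45% of the class II UMIs of migratory DCs at 14 dpi and 20.2% of those of cDC2 at that time.

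pDCs, the main producers of type I interferon, held H2-Aa at 1355 CPM in standard sham, 756 at 3 dpi and 752 at 14 dpi. Against cDC2, 7 of 8 genes were 2-fold lower at 3 dpi and 8 of 8 at 14 dpi, where 17.3% and 12.3% of all genes were lower. None was higher at either time, beside 6.30% and 6.42%, and the class II sum had log2 ratios of -3.15 [-3.26 to -3.04] and -3.42 [-3.49 to -3.35]. H2-DMa was the nearest to cDC2 of the 8 at 14 dpi, at 439 against 927 CPM (log2 ratio -1.08 [-1.31 to -0.86]). Cd86 stood at 38.8, 12.6 and 7.57 CPM in the 3 libraries. No UMI of Cd80 or Cd40 was found in pDCs at 3 dpi or at 14 dpi, which allows up to 18.9 and 7.57 CPM of each.

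In the main naming the class II sum of mature B cells differed by less than 2-fold between the libraries that held them. Their class II sum differed between 14 and 3 dpi by a log2 ratio of 0.11 [0.06 to 0.15] and between 3 dpi and standard sham by -0.43 [-0.48 to -0.39]. Cd74 stood at 13375, 9465 and 10609 CPM in standard sham, 3 dpi and 14 dpi, and Ciita at 93.7, 236 and 108 CPM. In the main naming the 3 dpi library was the lowest in Cd74 and the highest in Ciita. That library held only 134 mature B cells with 86 UMIs of Ciita. At 3 dpi the Ciita level of mature B cells overlapped that of cDC2 (log2 ratio of cDC2 over B cells 0.10 [-0.22 to 0.43]), while the class II sum of cDC2 was 2.43-fold that of B cells. Cd40, through which B cells receive help, was 50.5 [37.3 to 67.0], 49.4 [29.3 to 78.1] and 90.3 [67.2 to 119] CPM, above cDC2 at both times after injury (log2 ratios of cDC2 over B cells -2.04 [-2.86 to -1.16] and -1.64 [-2.14 to -1.12], with under 200 UMIs in each pair). Cd86 was 76.9, 43.9 and 46.0 CPM and Cd80 was at most 5.49 CPM.

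B cells with pre-B markers were low in class II in 2 of the 3 libraries that held them. They gave a class II sum of 398 CPM in standard sham and 522 at 14 dpi, but 12095 CPM in ActD sham, which had 65 such cells and no class of mature B cells of at least 20. B cells of either class that had no UMI of a pro-B or pre-B marker gave 30657.8, 22213.9, 14964.2 and 19938.1 CPM in standard sham, ActD sham, 3 dpi and 14 dpi, from 57, 8, 53 and 44 cells. Those with such a UMI gave 3008.1, 9342.1, 15750.8 and 2207.9 CPM from 676, 57, 81 and 446 cells, so that the cells with such a UMI were lower in 3 libraries and not at 3 dpi. Most cells named mature B cells also held such a UMI. At 3 dpi these were 81 of the 134 mature B cells. In standard sham and at 14 dpi at most 57 of 218 and 44 of 152 had none.

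Border macrophages held high class II transcript in sham, the lowest at 3 dpi and an intermediate level at 14 dpi. H2-Aa was 5265 CPM in standard sham, 6655 in ActD sham, 183 at 3 dpi and 1732 at 14 dpi. H2-Ab1 was 5124 CPM in standard sham, 6832 in ActD sham, 168 at 3 dpi and 1596 at 14 dpi, and Cd74 was 17089 CPM in standard sham, 15713 in ActD sham, 541 at 3 dpi and 3781 at 14 dpi. The order was the same in H2-Eb1, H2-DMa, H2-DMb1 and Ciita, with 14 dpi between 3 dpi and both sham libraries. The class II sum was 34872 [34583 to 35164] CPM in ActD sham, 1019 [973 to 1067] at 3 dpi and 8341 [8209.6 to 8474] at 14 dpi, which gave log2 ratios to ActD sham of -5.10 [-5.17 to -5.03] and -2.06 [-2.09 to -2.04]. Between the sham libraries the ratio was -0.12 [-0.14 to -0.10]. All 7 genes with enough UMIs were 2-fold lower at 3 dpi than in ActD sham, where 14.8% of all genes were lower and 11.9% higher. The median log2 ratio was -4.86 over the 7 genes and -0.02 over all 2447 genes. At 14 dpi 6 of 7 were lower, beside 3.08% of all genes, and 0 were higher, beside 3.27%, with medians of -1.94 and 0.00. From 3 to 14 dpi 6 of 7 were higher, beside 11.5% of all genes, and 0 lower, beside 9.09%, with a log2 ratio of the class II sum of 3.03 [2.96 to 3.1] and of 1.32 to 3.67 under the alternatives. The sum at 3 dpi was close to the 894 CPM of neutrophils in that library, and that at 14 dpi lay far above their 126 CPM. With other clusterings, doublet and cell filters the ratio to ActD sham was -5.51 to -3.47 at 3 dpi and -2.89 to -0.83 at 14 dpi, where -0.83 came from integration of the libraries. Under integration 0 of 8 genes were 2-fold lower at 14 dpi, and no border class was named at 3 dpi.

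The difference at 3 dpi was not even across the genes. It was largest in the chain genes H2-Eb1 (-5.48 [-5.68 to -5.29]), H2-Ab1 (-5.34) and H2-Aa (-5.18), smaller in Cd74 (-4.86), and smaller again in H2-DMb1 (-3.12) and H2-DMa (-2.99 [-3.26 to -2.73]). Cd86 went from 134 [116 to 153] CPM in ActD sham to 60.0 [49.2 to 72.5] at 3 dpi and 107 [92.3 to 123] at 14 dpi (log2 ratios -1.16 [-1.51 to -0.82] and -0.33 [-0.61 to -0.04]), and it was higher in standard sham, at 315 [280.2 to 352] CPM (log2 ratio to ActD sham 1.23 [0.98 to 1.49]). Cd86 was the 1 gene of 7 that was 2-fold higher in standard sham, beside 7.33% of all genes, and 0 were lower, beside 9.17%. Cd40 was 24.9 CPM in standard sham, 21.4 in ActD sham, 14.0 at 3 dpi and 10.8 at 14 dpi, and Cd80 was 19.7 CPM in standard sham, 8.17 in ActD sham, 3.92 at 3 dpi and 7.58 at 14 dpi, each under 200 UMIs in a pair.

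The class differed between libraries in more than these genes. Its own marker list summed to 5120.0, 7758, 9551 and 3378 CPM in standard sham, ActD sham, 3 dpi and 14 dpi, highest at 3 dpi, with 0 of its 9 markers at 0 in any library. Single markers did not all follow this order. At a resolution of 0.6, Lyve1 was 256.5, 554.8, 155.1 and 119.9 CPM in these libraries. Pf4 of the border list was also among the leading genes of injury macrophage clusters at 3 dpi. Whether the border class held the same kind of cell in each library was not tested. The cDC2 marker list followed the order of the class II sum, with 820.5 and 1267 CPM in the sham libraries, 54.4 at 3 dpi and 193 at 14 dpi. Most of it was Mgl2, at 638, 943, 9.53 and 107 CPM, and Clec10a, at 141, 245, 26.9 and 58.5 CPM, lectins that macrophages can also express. Flt3 and Zbtb46, which define conventional DCs, were 1.26 and 7.54 CPM in ActD sham against 61.7 and 21.1 in cDC2 at 3 dpi. Cd209a of the same list lay nearer to cDC2 in ActD sham. At a resolution of 0.6 it was 42.0 CPM there and 0.0 in standard sham, against 70.8 in cDC2 at 3 dpi. Whether the sham class held some DCs was not tested. The injury macrophage list summed to 1922, 1243, 12731 and 2509.9 CPM, the microglia list to 1719, 3952, 1031 and 6019 and the neutrophil list to 825, 243, 519 and 3190.0. Their part in the result was not tested.

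Single border macrophages were spread over a wide range of class II levels except at 3 dpi. The median of the class II sum per cell was 30024 CPM in standard sham, 35214 in ActD sham, 451 at 3 dpi and 452 at 14 dpi, and the 95th percentile at 14 dpi was 61316 CPM, so that the median cell of 14 dpi was as low as that of 3 dpi while some cells were as high as in sham. Cells with a UMI of Lyve1, a marker of a perivascular and leptomeningeal subset, gave 28534.4, 23281.9, 985.7 and 2991.8 CPM in standard sham, ActD sham, 3 dpi and 14 dpi, and cells without one 34603.9, 50431.9, 1059.5 and 10294.2 CPM. In both groups of cells 3 dpi was lowest and 14 dpi lay between it and the sham libraries.

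**Figure D4:**
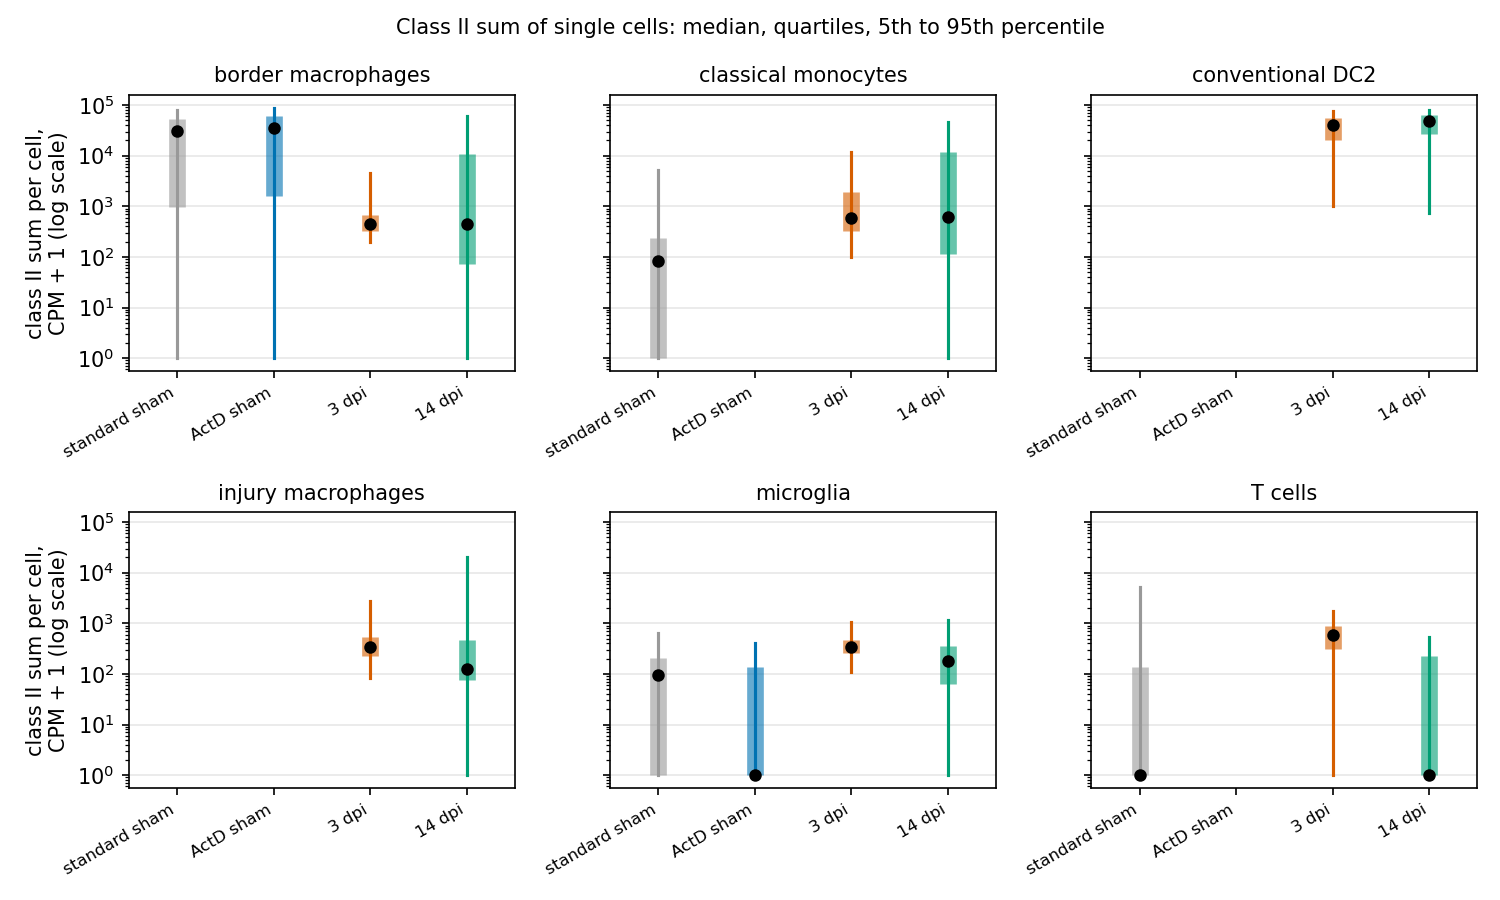
Class II sum of single cells as CPM + 1 on a log scale for 6 classes, by library. Points are medians, thick bars the quartiles and thin lines the 5th to 95th percentile over cells, which are not replicates. Border macrophages have medians of 30024 and 35214 CPM in the sham libraries and 451 and 452 after injury, and at 14 dpi the upper tails of border macrophages, classical monocytes and injury macrophages reach 61316, 46999.8 and 20392 CPM.

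Classical monocytes are blood-borne cells that enter the injured cord, and were named here from a list that holds Ly6c2 and Ccr2. At a resolution of 0.6, Ly6c2 was 1639.2, 485.3 and 3008.7 CPM in standard sham, 3 dpi and 14 dpi. Ccr2 was 599.5, 412.5 and 1225.9 CPM. T cells of 3 dpi held 496.7 CPM of Ly6c2, so Ly6c2 did not set the 3 dpi monocytes apart from them. Whether the same kind of monocyte was compared over time was not tested. Where named by cluster, the monocyte class held more class II transcript at 14 dpi than at 3 dpi. Where each cell was named on its own, it did not. H2-Ab1 was 195 CPM in standard sham, 372 at 3 dpi and 1719.8 at 14 dpi. Ciita was 4.21 CPM in standard sham, 11.6 at 3 dpi and 70.9 at 14 dpi, and H2-DMa was 265 CPM in standard sham, 143 at 3 dpi and 351 at 14 dpi. In the main naming the class II genes and Ciita were highest at 14 dpi, and H2-DMa was lowest at 3 dpi. Neutrophils at 3 dpi held 894 CPM of the class II sum beside the 2461 CPM of the monocytes. From 3 to 14 dpi the log2 ratio of the class II sum was 1.95 [1.92 to 1.98], that of Ciita was 2.62 [2.20 to 3.06] and that of Cd86 was -1.51 [-1.70 to -1.33]. Of 8 genes with enough UMIs, 7 were 2-fold higher, beside 17.8% of all genes, and Cd86 alone was lower, beside 6.94%, with a median log2 ratio of 1.95 over the 8 genes and 0.33 over all genes. With integration the class II sums were 3006.8 CPM at 3 dpi and 5838.1 at 14 dpi, a log2 ratio of 0.96, and 5 of 8 genes were 2-fold higher. With each cell named on its own they were 5557.4 and 4644.0 CPM, a ratio of -0.26, and 0 of 8 were higher. The other clusterings and filters gave ratios of 1.68 to 1.96 with 5 to 7 genes higher, and Cd86 was the 1 lower gene in all of them. The place of the sham libraries also depended on the naming. At a resolution of 0.6 the class II sum of standard sham was 6986.9 CPM (232 cells), above the 2714.1 CPM of 3 dpi. With integration standard sham held 2737.6 CPM, below 3 dpi, and ActD sham held 8741.1 CPM (28 cells), above 14 dpi. In the main naming Cd86 ran the other way from the class II genes, at 111 [95.2 to 128] CPM in standard sham, 166 [155 to 179] at 3 dpi and 58.4 [52.6 to 64.7] at 14 dpi.

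In the classes named by cluster, the higher sum at 14 dpi came from a part of the cells. The median per cell was 583 CPM at 3 dpi and 626 at 14 dpi, while the 95th percentile was 11823 and 46999.8 CPM, and thinned cells with at least 10 class II UMIs were 7.03% and 26.1%. The 2 clusters named classical monocytes at 14 dpi, 1 of 397 cells led by Vcan and F13a1 and 1 of 359 cells led by Ms4a4c and Plac8, had class II sums of 9593 and 9446 CPM. At 3 dpi the clusters of 427 and 99 cells gave 2197 and 4041 CPM. Over the class, the marker list of non-classical monocytes summed to 149.7, 174 and 686 CPM in standard sham, 3 dpi and 14 dpi, that of cDC2 to 154, 61.8 and 136 and that of injury macrophages to 6278, 15644 and 3229. Their part in the result was not tested.

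Injury macrophages, the most numerous cells at 3 dpi, stood far below the DCs in class II transcript. At 3 dpi H2-Aa was 113 CPM, H2-Eb1 76.9, Cd74 373 and Ciita 2.83. All 10 genes were 2-fold higher in all DCs as 1 class than in injury macrophages at 3 dpi, beside 10.5% of all genes that were higher and 9.61% lower, and the class II sum had a log2 ratio of 5.79 [5.77 to 5.80], a 55.2-fold difference. The gap was widest for Ciita (6.49 [6.25 to 6.73]) and narrow for Cd80 (1.62 [1.27 to 1.96]), Cd86 (1.74 [1.63 to 1.84]) and Cd40 (1.25 [0.87 to 1.62]). At 14 dpi the ratio of the class II sum was 3.77 [3.72 to 3.82], and 8 of 8 genes were higher in DCs, beside 19.1% of all genes, and 0 lower, beside 7.93%. That ratio rested on 89 injury macrophages and was 3.98 to 5.90 under the alternatives, highest at a resolution of 0.6, where 813 cells had the name and 7 of 8 genes were higher. Monocytes at 3 dpi exceeded injury macrophages in 8 of 10 genes, beside 4.12% of all genes, and were lower in 0, beside 6.73%, with a log2 ratio of the class II sum of 1.86 [1.83 to 1.89].

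The class II level of injury macrophages at 14 dpi depended on which cells were given the name. The class II sum was 678 CPM at 3 dpi and 2750.4 at 14 dpi (log2 ratio 2.02 [1.97 to 2.07]), and 4 of 9 genes were 2-fold higher, beside 8.79% of all genes, and 1 lower, beside 10.2%. The 4 were H2-Aa, H2-Ab1, H2-Eb1 and Cd74, and the lower gene was Cd80, of which 1 UMI was found at 14 dpi. At a resolution of 0.6 the class held 813 cells at 14 dpi with a sum of 622.4 CPM, against 668.1 CPM at 3 dpi, a log2 ratio of -0.10, and H2-DMa was the 1 gene 2-fold higher. Integration gave 226 cells and 1122.5 CPM against 441.2 CPM, a ratio of 1.35, and without doublet removal the ratio was 0.73 and 0 genes were higher. In the main naming 89 cells made up the class at 14 dpi, with a median per cell of 126 CPM, below the 333 CPM of 3 dpi, and a 95th percentile of 20392 CPM. Among the 7 clusters of injury macrophages at 3 dpi, 1 of 93 cells led by the interferon-induced genes Ifit3 and Rsad2 had a class II sum of 5075 CPM and a Cd40 level of 27.1 CPM, while the others ranged from 403.6 to 1175 CPM in the class II sum and from 4.06 to 6.47 CPM in Cd40. The clusters were formed from the same cells, so these values are a description.

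Microglia were low in class II chains and Ciita in every library but not low in H2-DM or Cd86. H2-Aa was 14.4 CPM in standard sham, 26.6 in ActD sham, 78.6 at 3 dpi and 49.5 at 14 dpi. Cd74 was 171 CPM in standard sham, 130.3 in ActD sham, 228 at 3 dpi and 284 at 14 dpi, and Ciita was 0.771 CPM in standard sham, 0.350 in ActD sham, 2.21 at 3 dpi and 0.806 at 14 dpi. H2-Aa was highest at 3 dpi and Cd74 at 14 dpi, and both stayed far below the levels of sham border macrophages in every library. The class II sum of microglia had log2 ratios to ActD sham of 0.98 [0.92 to 1.03] at 3 dpi, 0.94 [0.89 to 0.99] at 14 dpi and -0.01 [-0.07 to 0.05] in standard sham. With other clusterings, doublet and cell filters they were 1.13 to 2.84, 0.97 to 2.13 and -0.01 to 1.36. Under these alternatives 2 to 4 genes were 2-fold higher at 3 dpi and 1 to 4 at 14 dpi. The class II UMIs of ActD sham microglia were uneven over cells, with a median per cell of 0 CPM and a 95th percentile of 398. With integration 1 cluster of 24 microglia of that library, at 5461.0 CPM, held 1701 class II UMIs, where the main class of 1667 cells held 3904. The counting intervals do not cover this unevenness.

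Genes of microglia lay on both sides of ActD sham after injury. Of the 8 genes with enough UMIs, 2 were 2-fold lower at 3 dpi and 1 at 14 dpi. These counts were near the shares of all genes, 31.8% and 15.1%. The median log2 ratio of all genes of microglia over ActD sham was -0.54 at 3 dpi, -0.52 at 14 dpi and -0.54 in standard sham, and TMM normalization would raise every ratio of these comparisons by 0.52, 0.60 and 0.56. At 3 dpi H2-Aa (1.56 [1.41 to 1.72]) and H2-Eb1 (1.10 [0.94 to 1.27]) were 2-fold higher and H2-DMa (-1.33 [-1.39 to -1.27]) and Cd80 (-2.88 [-3.40 to -2.40]) 2-fold lower, among 8 genes with enough UMIs and beside 11.0% of all genes higher and 31.8% lower. The median over these 8 genes was -0.01. H2-DMb1 had a ratio of -0.83 [-0.92 to -0.74] and Cd86 of -0.88 [-0.97 to -0.79], and under TMM these were -0.31 and -0.36. Under TMM H2-DMa would be less than 2-fold lower, and Cd80 would still be 2-fold lower. At 14 dpi Cd74 (1.13 [1.06 to 1.19]) was 2-fold higher, beside 4.14% of all genes, and Cd80 (-2.17 [-2.45 to -1.89]) 2-fold lower, beside 15.1%. The ratios of H2-DMa (-0.65), H2-DMb1 (-0.60) and Cd86 (-0.44) at 14 dpi were -0.05, 0.00 and 0.15 under TMM, so that the ratio of Cd86 turned its sign with the scaling and those of H2-DMa and H2-DMb1 came close to 0. In standard sham H2-Eb1 (-1.20 [-1.44 to -0.97]) was the 1 gene 2-fold lower, beside 18.0% of all genes, and 0 were higher, beside 4.71%.

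Against free RNA, the class II chains of microglia were not clearly set apart at 3 dpi. The thinned share of microglia with a class II UMI was 14.5% [13.2 to 15.9] in standard sham, 10% [8.61 to 11.6] in ActD sham, 34.4% [31.2 to 37.8] at 3 dpi and 21.8% [20.6 to 23.1] at 14 dpi, with median depths of 7617, 9380, 20897 and 10759 UMIs, and unthinned shares of 53.5%, 46.6%, 97.4% and 78.4%. In neutrophils, of median depths 6382, 14590, 2303 and 5075 UMIs, it was 6.34% [4.06 to 9.36], 9.91% [5.05 to 17.0], 58.5% [56.2 to 60.8] and 13% [11.1 to 15]. Microglia lay above neutrophils in standard sham and at 14 dpi, level with them in ActD sham and below them at 3 dpi, and T cells of standard sham (16.1% [7.62 to 28.3]) overlapped the microglia of that library. At 3 dpi the class II UMIs of microglia were 17.5% H2-Aa, 19.6% H2-Ab1, 12% H2-Eb1 and 50.8% Cd74, those of T cells 18.7%, 19.8%, 13.2% and 48.3%, and those of neutrophils 18.4%, 19.1%, 13.4% and 49.2%. Counted per cell, microglia at 3 dpi held 10.4 class II UMIs, fibroblasts 10.1, T cells 2.36 and neutrophils 2.24. The class at 3 dpi also held 6977 CPM of the injury macrophage list, against 88.8 in ActD sham, and 5627 CPM of its own list, against 22835, while the cDC2 list was 15 and 19.0 CPM. Their part in the result was not tested.

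H2-DMa and Cd86 of microglia, by contrast, exceeded neutrophils in all 4 libraries. Thinned cells with a UMI of H2-DMa were 26.0%, 30.1%, 13.3% and 21.6% of microglia in standard sham, ActD sham, 3 dpi and 14 dpi and 2.48%, 3.60%, 3.55% and 1.08% of neutrophils. For Cd86 they were 14.6%, 15.1%, 7.63% and 13% of microglia against 1.93%, 1.80%, 3.77% and 1.5% of neutrophils. The level of Cd86 was 163 CPM in standard sham, 163 in ActD sham, 88.2 at 3 dpi and 119.6 at 14 dpi. Counted per cell the order differed, with 1.26, 1.67, 2.06 and 1.43 UMIs of Cd86, and the microglia of 3 dpi were the deepest. Lower CPM of Cd86 at 3 dpi therefore went with more UMIs of it per cell.

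Some microglia clusters stood out within their library. At 14 dpi 1 cluster of 119 cells, led by Ccl12, Cxcl10 and Spp1, had a class II sum of 1540.1 CPM and a Cd40 level of 65.4 CPM, and the other clusters of that library ranged from 246.2 to 589 CPM and from 0.18 to 4.71 CPM. In ActD sham clusters of 131 and 94 cells had 1063 and 1019 CPM, the other clusters 53.9 to 290.8 CPM. A standard sham cluster of 76 cells led by Lpl and Gpr84 had 1103 CPM, whereas the interferon-led cluster of 38 cells in the same library had 191.3 CPM. As with the macrophages, these clusters were formed from the same cells and the values are a description.

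The costimulatory genes were spread over the classes in another way than the class II genes. Cd86 was highest in border macrophages of standard sham (315 [280.2 to 352] CPM), followed by cDC2 (187 [174 to 202]), migratory DCs (185 [147 to 229.8]) and classical monocytes (166 [155 to 179]) at 3 dpi, microglia of standard sham (163 [158 to 169]) and ActD sham (163 [157 to 169]) and cDC1 (162 [138 to 189.6]). Only the first of these stood clear of its neighbour in the order. Microglia held 72%, 86.8%, 24.6% and 81.8% of the Cd86 UMIs of standard sham, ActD sham, 3 dpi and 14 dpi, and injury macrophages held 43.5% at 3 dpi.

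Cd80 was scarce in all classes. Its highest levels were in migratory DCs at 14 dpi (66.6 [40.1 to 104] CPM) and 3 dpi (45.6 [27.9 to 70.5]), neutrophils at 3 dpi (31.6 [26.6 to 37.2]) and classical monocytes of standard sham (29.5 [21.8 to 39.0]), and each overlapped its neighbour in this order. Neutrophils exceeded microglia in Cd80 in standard sham (27.7 against 13.4 CPM), at 3 dpi (31.6 against 2.11) and at 14 dpi (8.89 against 3.46) but not in ActD sham (4.56 against 15.5). In microglia Cd80 was 13.4 CPM in standard sham, 15.5 in ActD sham, 2.11 at 3 dpi and 3.46 at 14 dpi, and both injured libraries lay below both sham libraries. Microglia held 52.8%, 87.5%, 5.42% and 46.2% of the Cd80 UMIs.

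Cd40 was highest in migratory DCs and in some of the B cell classes. Its order began with migratory DCs at 14 dpi (203 [154 to 263] CPM), mature B cells at 14 dpi (90.3 [67.2 to 119]), B cells with pre-B markers in ActD sham (63.6 [42.9 to 90.8]), migratory DCs at 3 dpi (57.1 [36.9 to 84.2]) and mature B cells of standard sham (50.5 [37.3 to 67.0]) and 3 dpi (49.4 [29.3 to 78.1]), of which only the first stood clear of its neighbour. B cells with pre-B markers held 7.78 CPM in standard sham and 4.56 at 14 dpi, below mature B cells of the same libraries. Thinned cells with a UMI of Cd40 were 4.11% and 15.8% of migratory DCs at 3 and 14 dpi and 0.111% of neutrophils at 3 dpi. Injury macrophages held 328 of the 571 Cd40 UMIs of 3 dpi (57.4%) at a level of 5.90 CPM. In classical monocytes Cd40 was 14.4 CPM in standard sham, 5.43 at 3 dpi and 25.5 at 14 dpi, and in cDC2 it was 12 and 29.0 CPM, with ratios from 3 to 14 dpi of 2.23 [1.61 to 2.92] and 1.27 [0.75 to 1.81] from under 200 UMIs each.

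**Figure D5:**
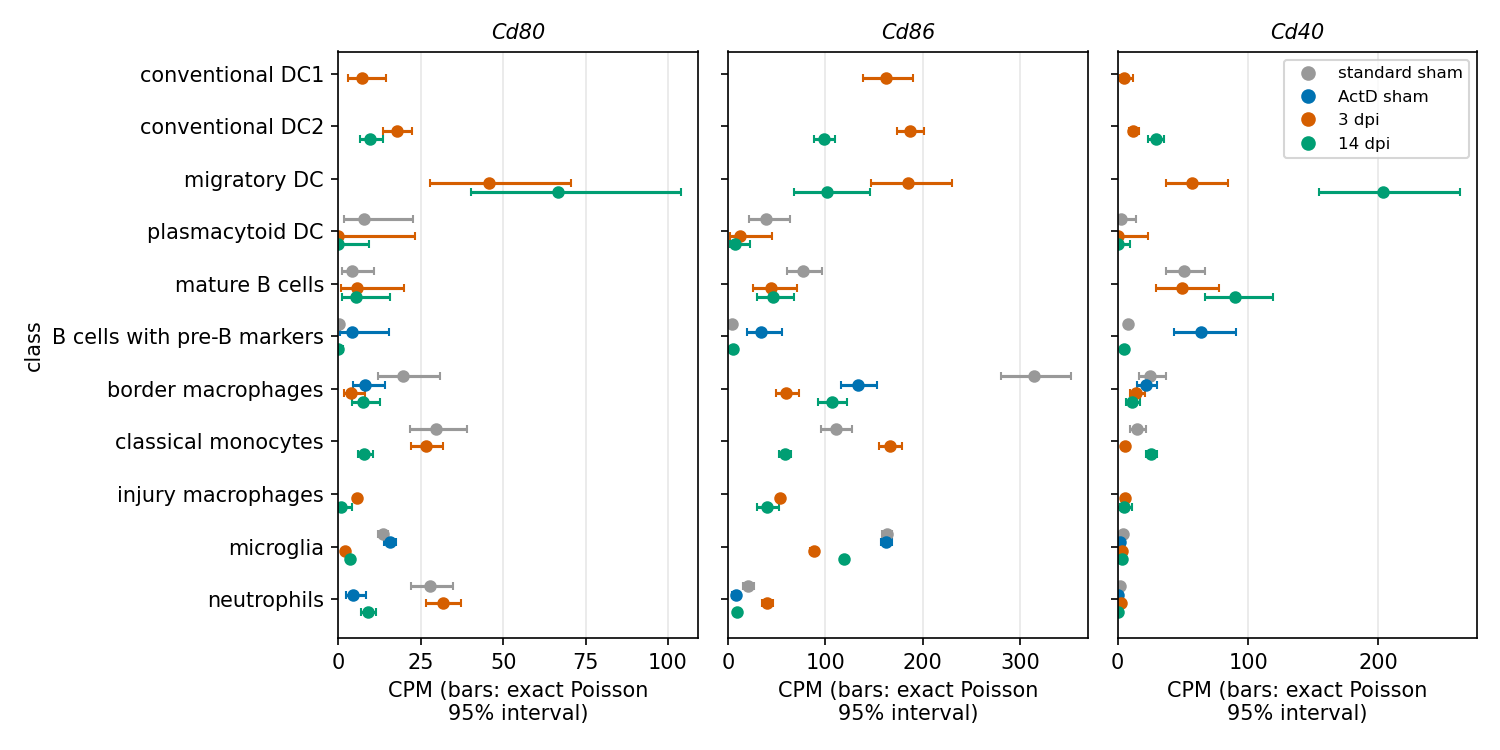
Levels of Cd80, Cd86 and Cd40 in CPM (horizontal, linear from 0) by cell class (vertical), with 1 point per library and bars for the exact Poisson 95% interval. Cd86 is present in border macrophages, monocytes, microglia, cDC1, cDC2 and migratory DCs at up to 315 CPM, Cd80 stays at or under 66.6 CPM, and Cd40 reaches 203 CPM in migratory DCs at 14 dpi and 90.3 CPM in mature B cells at 14 dpi.

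H2-DM, which edits the peptides of class II molecules, did not keep a fixed ratio to the class II sum. H2-DMa was 2.08 and 2.12 UMIs per 100 class II UMIs in cDC2 at 3 and 14 dpi, 1.86, 2.20 and 1.85 in mature B cells and 1.43, 1.78, 7.65 and 3.68 in border macrophages of standard sham, ActD sham, 3 dpi and 14 dpi. In microglia it was 147, 165, 33.3 and 54.6, so that the sham microglia held more H2-DMa than all 4 class II genes together. Neutrophils gave 4.30 at 3 dpi, and migratory DCs the lowest values, 0.818 and 0.605. H2-DMb1 was low in mature B cells, at 0.414, 0.853 and 0.341 per 100 against 1.95 and 2.15 in cDC2. Its neighbour H2-DMb2, which encodes another H2-DM beta chain of closely similar sequence, ran the other way, at 419, 266 and 381 CPM in mature B cells and 151 and 145 in cDC2. Reads of the paired genes could be split between them, so both levels are uncertain.

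Ciita per 100 class II UMIs was 0.711 in cDC1, 0.673 and 0.646 in cDC2, 0.450, 1.53 and 0.650 in mature B cells, and 0.172, 0.205, 0.440 and 0.312 in border macrophages. Border macrophages of the sham libraries, the class nearest to cDC2 in the class II sum, thus held less Ciita for each class II UMI. The lowest of these ratios, 0.0908, was in migratory DCs at 14 dpi, from 3 UMIs.

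Of the wider pathway, 37 of 41 listed symbols were matched. H2-Ea, the partner chain of H2-Eb1 in I-E, was not among them. H2-Eb1 is therefore read as transcript only, and says nothing of I-E at the surface. Among the class II partners, H2-Oa and H2-Ob, which encode the inhibitor of H2-DM, were 182, 167 and 139.9 and 265, 264 and 267 CPM in mature B cells of standard sham, 3 dpi and 14 dpi, and H2-Oa reached 338 CPM in cDC1. In microglia at 3 dpi 2 genes of 26 with enough UMIs were 2-fold higher than in ActD sham (Ctsl and Tnfsf9), beside 11.0% of all genes, and 14 were lower, beside 31.8%. Among these was Ctss, the protease that removes the invariant chain, which went from 11002 to 2547 CPM. At 14 dpi 0 of 26 were higher and 4 lower, beside 4.14% and 15.1% of all genes, so the lower count was near the share of all genes. In border macrophages at 3 dpi 1 of 10 was higher and 5 were lower, beside 11.9% and 14.8% of all genes, including Ifngr1, a chain of the interferon gamma receptor, at 499.5 and 142 CPM. At 14 dpi 2 genes of 11 were higher than in ActD sham and 0 lower, beside 3.27% and 3.08%.

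Classical monocytes had 7 of 18 pathway genes 2-fold higher at 14 dpi than at 3 dpi and 2 lower, beside 17.8% and 6.94% of all genes. Among the 7 were March1, the ubiquitin ligase that drives turnover of class II, and the chains of the interferon gamma receptor, Ifngr1 and Ifngr2, and Ifngr1 was 182 CPM at 3 dpi and 505 at 14 dpi. cDC2 had 5 of 20 higher, among them Irf8 and H2-Ob, and 1 lower, beside 6.63% and 5.05%. In migratory DCs March1 was 6.85 and 3.5 CPM against 74.5 and 127 in cDC2, and Cd83, whose protein protects class II and CD86 from March1, was 336 and 326 CPM against 63.8 and 40.7. At 3 dpi 4 of 14 pathway genes were higher and 4 lower in migratory DCs than in cDC2, beside 7.98% and 20.3% of all genes, and at 14 dpi 3 of 16 were higher and 5 lower, beside 8.61% and 28.8%.

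On the side of the T cells, the partners of the costimulatory genes were present in all libraries that held T cells. Cd28, the receptor of Cd80 and Cd86 and a marker used to name the class, was 288 CPM in standard sham, 183 at 3 dpi and 144 at 14 dpi. Cd40lg, the ligand of Cd40, was 15.3 [6.14 to 31.5], 44.7 [35.9 to 55] and 41.0 [34.8 to 47.8] CPM. Ifng, the cytokine that induces Ciita, was 39.3 [23.3 to 62.1], 46.2 [37.2 to 56.7] and 62.3 [54.7 to 70.7] CPM in T cells, and 39.4 [12.8 to 92.0] and 131 [111 to 154] CPM in natural killer cells at 3 and 14 dpi, with overlapping intervals between neighbouring libraries in T cells.

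Across the 40 sums of a class and a library, the 4 class II genes followed each other closely on the log2(CPM + 1) scale. Pearson's r was 0.994 between H2-Aa and H2-Eb1 and 0.977 to 0.987 between Cd74 and the chain genes, and that of Ciita with the 4 genes was 0.903 to 0.928. H2-DMa and H2-DMb1 had an r of 0.931, whereas Cd86 had 0.512 to 0.576 and Cd40 0.609 to 0.635 with the class II genes, and the lowest value among the 10 genes was 0.193, between Cd80 and Ciita. The sums share 4 libraries with their depths and free RNA, so they are not independent and no p-value is given. The ranking of other genes left out the 10 genes themselves, the class markers, immunoglobulin and T cell receptor genes and sex-linked genes. Of the 12025 genes that remained with at least 200 UMIs over these sums, those most like the mean of the class II genes were Igsf9 (0.799), H2-DMb2 (0.732), Hepacam2 (0.72), Ero1lb (0.717) and Btla (0.705). Cd86 was followed most closely by Bcl2a1a (0.808), Kcnk6 (0.8), Irf5 (0.791), Gsdmd (0.786) and P2rx4 (0.775), Cd80 by Gsdmd (0.744), Nuak2 (0.691), Rassf2 (0.687), Ptafr (0.663) and Zfand3 (0.653), and Cd40 by Trim7 (0.714), Nfkb2 (0.689), Cxcr5 (0.674), Filip1l (0.668) and Swap70 (0.664).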

How the data were processed

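CD45+ cells of 4 libraries, 1 per condition, were analysed, and conditions were taken from the sample labels. The deposited files hold raw counts, that is UMIs of each gene in each barcode, which the authors made with Cell Ranger on mm10 per the submitters' processing notes and the matrix headers. Barcodes were kept from 600 detected genes and up to 10% of UMIs from mitochondrial genes. Itgam-positive cells that also held a lymphoid marker were removed, as were the cells with the highest Scrublet scores in scanpy 1.11.5, at 0.8% per 1000 cells (291, 42, 774 and 931 cells in standard sham, ActD sham, 3 dpi and 14 dpi). Each library was clustered alone on 2000 variable genes, 30 principal components and 15 neighbours at a resolution of 1.5, with the 10 genes left out, and a cluster was named where at least 3 markers of a list were detected in 25% of its cells and its 10 leading genes and depth did not go against the name. The members and lists were chosen with earlier results of these data known, and the naming thresholds were chosen once the clusters were known.

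For every class of at least 20 cells in a library the UMIs were added up, so cells were not treated as replicates, and no test was made. Sums carry exact Poisson, ratios exact conditional Poisson and shares exact Clopper-Pearson intervals at 95% (scipy 1.17.1, Python 3.11.15), which cover counting error only, and a count of 0 is given the limit of 3 counts. For shares, each cell was thinned to 1000 UMIs. TMM factors came from edgeR 4.0.16 in R 4.3.3. Ratios were counted at 2-fold for genes whose 2 sums held 200 UMIs or more, and the share of all genes past that fold is printed beside them. The ratio calculation was tested on simulated data. All 10 genes are given in each main class, the pathway genes by counts and examples, and the genes most like the members by the highest 5 values of Pearson's r. Genes were matched by identifier to GENCODE M21 (30934 of 31053). The alternatives were integration with Seurat 5.3.0, naming each cell alone, a resolution of 0.6, no doublet removal, stricter filters (1000 genes, 5% mitochondrial UMIs), TMM and other UMI minimums. Promoter windows are those of RefSeq, in which 5 of the 10 genes matched, and Cd74 was left out of the search.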

Additional observations from a re-analysis of the deposited data

Results flagged for a closer look

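The class II sum lay above ActD sham in microglia and below it in border macrophages at both times after injury. At 3 dpi the log2 ratio was 0.98 in microglia and -5.10 in border macrophages, and at 14 dpi it was 0.94 and -2.06. The ratios share the ActD sham library, there was 1 library per condition, and the difference between the classes was not tested. At 3 dpi the share of cells with a class II UMI in both classes lay below that of the shallower neutrophils, and their class II UMIs per cell lay above, as given above. In microglia the class II UMIs per cell were close to those of fibroblasts of like depth. These fibroblasts were 20 cells of a CD45+ sort and may hold class II transcript of their own. The count per cell therefore does not decide whether the class II UMIs of microglia were free RNA.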

How the results depend on the processing

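Of the 76 values that 10 main ratios took under the alternatives, 14 moved by less than the counting interval, 60 by more, 2 turned a called sign, and 69 kept the sign of the main value. The 2 were injury macrophages from 3 to 14 dpi at a resolution of 0.6 and classical monocytes from 3 to 14 dpi with each cell named alone. The other 5 belonged to the class II sum of microglia in standard sham over ActD sham, whose main value of -0.01 had an interval that included 0. The cause of each shift was not tested. In what follows the class II sum is given over ActD sham in microglia at 3 dpi, at 14 dpi and in standard sham, then in border macrophages at 3 and 14 dpi, then for DCs over injury macrophages at 3 dpi, and last Cd86 in microglia at 3 dpi, where it moved. Integration of the libraries gave 2.32, 1.11, 0.29, no border class at 3 dpi, -0.83, 6.56 and -0.98. Naming each cell alone gave 2.84, 2.13 and 1.36 in microglia, -2.89 in border macrophages at 14 dpi and 5.82 for DCs. A resolution of 0.6 gave 1.76, 1.82 and 0.81 in microglia and -3.63 and -2.31 in border macrophages. Without doublet removal the value was 1.99 in microglia at 3 dpi, -3.47 and -1.85 in border macrophages and 5.64 for DCs. Stricter cell filters gave 1.13 and 1.03 in microglia after injury, -5.51 and -1.84 in border macrophages and 6.13 for DCs. TMM gave 1.5, 1.54 and 0.54 in microglia, -4.85 in border macrophages at 3 dpi, 5.52 for DCs and -0.36 for Cd86.

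Other alternatives were chosen after seeing the data. The ratios of injury macrophages at 14 over 3 dpi, of DCs over injury macrophages at 14 dpi and of classical monocytes at 14 over 3 dpi were 2.02, 3.77 and 1.95. They became 1.35, 5.21 and 0.96 with integration, 1.39, 3.98 and -0.26 with each cell named alone and -0.10, 5.90 and 1.85 at a resolution of 0.6. Without doublet removal the first 2 were 0.73 and 4.66, with stricter filters the 3 were 1.36, 4.60 and 1.68, and under TMM 1.82, 3.57 and 1.65. With neutrophil class II UMIs per cell taken off, the first and last were 2.33 and 2.10, and with their CPM taken off the last 2 were 3.83 and 2.58 and the first had no value. Taking the class II UMIs per cell of neutrophils off each class gave 1.38, 1.45 and -0.53 in microglia, -5.30 in border macrophages at 3 dpi and 6.11 for DCs. Taking off their CPM gave 0.79 and -0.93 in microglia at 14 dpi and in standard sham and -8.12 in border macrophages at 3 dpi, and gave no value for microglia or for DCs over injury macrophages at 3 dpi, where the remainder was below 0. Border macrophages with a UMI of Lyve1 alone gave -4.56 and -2.96. The share of all genes at least 2-fold higher changed with the UMI minimum of 200, of 20 and none, from 11.0% to 14.1% and 20.1% in microglia at 3 dpi, from 4.14% to 6.40% and 13.7% at 14 dpi and from 4.71% to 6.62% and 12.8% in standard sham. In border macrophages these shares were 11.9%, 9.96% and 16.1% at 3 dpi, 3.27%, 7.64% and 22.2% at 14 dpi and 7.33%, 5.48% and 11.7% in standard sham, and 7 of the 12 alternatives were over 1.5 times the main share or under it by as much. No paired analysis was possible because each condition had 1 library, and for the same reason no replicate could be left out. Small classes limit the precision, as for Cd80, of which injury macrophages held 1 UMI at 14 dpi.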

Other observations

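Some clusters that stayed without a name held class II transcript. In standard sham a cluster of 92 cells led by the granule genes Prtn3, Elane and Mpo had a class II sum of 5460.6 CPM, a cluster of 82 cells led by the immunoglobulin genes Igkc and Ighm had 8829 CPM, and a cluster of 57 cells led by Retnlg, Ace and Treml4 had 8721 CPM. At 3 dpi a cluster of 86 cells led by Prtn3, S100a9 and Mki67 had 4416 CPM, and in ActD sham a cluster of 62 cells had 2113 CPM. These values were chosen after they had been seen.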
